A study of Mus musculus with 15 samples.

Results

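Collagen chain genes were read in RNA sequencing of mouse aorta. They were chosen by symbol: every row of the deposited gene table named Col, a number, the letter a and a number, which gave 44 of 34714 genes. No measured value entered that rule, but it and the classes, gene lists and tests were set with earlier results of these data known. All mice were wild type at the genotype label. The 3 groups held 5 libraries each: Sham mice as controls, AngII mice infused with angiotensin II at 750 ng/kg per minute, and AngII+RvE1 mice (AngII+E1 in the labels), which received that infusion and resolvin E1 (RvE1) by intraperitoneal injection at 2 µg/kg per day. Angiotensin II is the pressor peptide of the renin-angiotensin system, and RvE1 is a lipid mediator that helps to end inflammation. The labels give no age, sex, time of collection or animal for any library, so p-values below measure the spread between these samples, which may be partly technical.

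Collagens are secreted proteins in which 3 chains, alike or different, wind into a helix. Fibrillar chains build the ropes that limit stretch in the media and adventitia of the aorta, while type IV chains form the sheet-like network of the basement membrane around each smooth muscle cell and under the endothelium. FACIT chains sit on the surface of fibrils and link them to their surroundings. Multiplexins, the chains of types XV and XVIII, carry heparan or chondroitin sulfate, lie in or next to basement membranes and can be cut at their C-terminal end to release restin or endostatin. Type VI chains form beaded filaments, and type VIII chains form short networks in vessel walls.

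The classes also differ in how their genes are built. In the GENCODE annotation of GRCm38, 83.9% of the inner coding exons of the 11 fibrillar genes had a length that is a multiple of 9 bases, the length of a glycine-led repeat, and 48.6% were 54 bases long. The share of multiples of 9 was 55.1% in the FACIT genes, 47.2% in the 6 type IV genes and 37.7% in the multiplexin genes, against 13.7% in all other protein-coding genes. Type IV genes lie in head-to-head pairs. The starts of Col4a1 and Col4a2 on chromosome 8 are 21 bases apart, those of Col4a3 and Col4a4 on chromosome 1 are 72 bases apart, and those of Col4a5 and Col4a6 on chromosome X are 1309 bases apart.

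In all 3 comparisons together 4 chains passed the threshold, all between AngII+RvE1 and AngII: Col18a1, Col15a1, Col4a6 and Col4a5. The sequences before the starts of these 4 genes are shown because the genes were higher together, and because Col4a5 and Col4a6 share the stretch between them. They come from the RefSeq promoter table of GRCm38.p6, which matched 35 of the 44 genes, run 5′ to 3′ on the gene's strand, and stop before the first GENCODE exon base. Col18a1 has a further RefSeq start, whose window lies mostly in a GENCODE exon and is not shown. The Col15a1 stretch ends at a RefSeq start after base 47208011, short of the GENCODE start at 47208161. Capitals mark GGGCGG or CCAAT on either strand; TATAAA and the CArG box were also searched, and no marked motifs overlap.
Col18a1, chr10:77166549-77166780, minus strand: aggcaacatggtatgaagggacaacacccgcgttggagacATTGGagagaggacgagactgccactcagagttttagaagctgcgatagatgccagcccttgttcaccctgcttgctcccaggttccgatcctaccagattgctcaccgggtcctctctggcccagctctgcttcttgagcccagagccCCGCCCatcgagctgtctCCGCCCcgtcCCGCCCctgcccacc
Col15a1, chr4:47207762-47208011, plus strand: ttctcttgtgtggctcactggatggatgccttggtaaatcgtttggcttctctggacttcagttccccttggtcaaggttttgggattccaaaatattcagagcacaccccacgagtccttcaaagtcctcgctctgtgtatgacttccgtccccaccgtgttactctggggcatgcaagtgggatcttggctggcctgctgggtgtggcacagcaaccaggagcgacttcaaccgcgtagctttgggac
Col4a6, chrX:141474077-141474326, minus strand: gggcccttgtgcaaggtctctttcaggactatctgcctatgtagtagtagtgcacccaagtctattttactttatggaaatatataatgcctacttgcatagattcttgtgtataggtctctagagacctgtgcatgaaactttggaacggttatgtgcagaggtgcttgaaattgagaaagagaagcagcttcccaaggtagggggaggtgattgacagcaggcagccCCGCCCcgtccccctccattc
Col4a5, chrX:141475169-141475384, plus strand: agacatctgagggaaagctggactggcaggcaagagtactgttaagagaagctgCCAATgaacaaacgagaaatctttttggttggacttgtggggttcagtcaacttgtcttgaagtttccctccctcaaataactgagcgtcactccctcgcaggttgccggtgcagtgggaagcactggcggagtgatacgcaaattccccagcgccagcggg

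GGGCGG, the letters read by Sp-family factors, stood 3 times before Col18a1 and once before Col4a6 in these stretches, and CCAAT stood once before Col18a1 and once before Col4a5. Neither TATAAA nor the CArG box, the element read by serum response factor in contractile genes, was found in any of the 4. Over all 32841 windows of 250 bases in the table, 32.7% held GGGCGG, 33.9% held CCAAT, 12.4% held TATAAA and 1.47% held a CArG box. Among 22 windows of the collagen genes that passed the filter described below, 13 held GGGCGG, 7 held CCAAT, 1 held TATAAA and 0 held a CArG box. These too are full windows, and that of Col4a5 held GGGCGG once, not wholly within the stretch shown. These are matches of letters and do not show binding.

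The deposited values were read as FPKM, which relate reads to the length of the gene and the depth of the library. No unit stands in the table, and TPM over a wider gene set cannot be told apart from it. Library sums ran from 385846 to 514281, and read depth is unknown. Smooth muscle identity was plain in every library: Acta2 was at least 485 FPKM and Myh11 at least 79.8. Summed adipocyte markers ran from 7747 to 24110 FPKM and summed cardiac and skeletal muscle markers from 13.3 to 1860, with overlap between all groups. AngII libraries 3, 4 and 5 stood apart: their summed lymphocyte markers were 866, 287 and 1322 FPKM, against 12.6 and 5.81 in AngII libraries 1 and 2, 3.34 to 67.5 over Sham and 7.79 to 10.4 with RvE1. The 4 calls, the chain medians and several estimates that rest on AngII are therefore also given without those 3 libraries.

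A gene was tested if it reached 1 FPKM in at least 5 libraries, which 12603 genes did. Of the 44 chains 24 passed: 7 of 11 fibrillar, 5 of 6 basement membrane, 4 of 9 FACIT, both multiplexin, 3 of 6 beaded filament, 1 of 3 hexagonal network, 1 of 4 transmembrane and 1 of 3 anchoring fibril and other chains. The 20 below it were the fibrillar chains Col2a1, Col11a1, Col11a2 and Col24a1, the basement membrane chain Col4a3, the FACIT chains Col9a1, Col9a2, Col9a3, Col19a1 and Col22a1, and the beaded filament chains Col6a4, Col6a5 and Col6a6. Also below it were Col8a2, Col10a1, Col13a1, Col17a1, Col25a1, Col7a1 and Col26a1. Of the cartilage chains, Col2a1 was near the floor, at most 0.0552 FPKM in any library, while Col11a2 reached 1.30. Of 7 chondrocyte markers, 5 were below 1 FPKM throughout, and Acan reached 3.47 FPKM in AngII+RvE1.

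Few chains made up most of the collagen message. Col1a2, Col3a1, Col18a1, Col1a1, Col4a1, Col6a2, Col6a1 and Col4a2 together held 81.4% to 86.7% of the summed collagen FPKM of each library. In Sham the highest group mean was Col1a2 with 147 ± 65.5 FPKM (SD, n = 5), followed by Col18a1 with 140 ± 85.2 and Col3a1 with 135 ± 65.7. All neighbours among the first 12 chains of the Sham order overlapped in their libraries. In AngII the order began with Col3a1, Col1a2 and Col1a1, and Col18a1 was in place 5 with 58.9 ± 30.5 FPKM. In AngII+RvE1 it was again in place 2 with 226 ± 47.8 FPKM, just under Col1a2 with 227 ± 67.5. There Col15a1, in place 9, was above the next chain, Col5a2, in 5 of 5 libraries with no overlap, the only such gap among the neighbours examined at the top of the 3 orders.

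Among class shares, that of the multiplexins set AngII apart from both other groups. Multiplexin chains held 13.2% to 19.6% of collagen FPKM in Sham, 7.47% to 11.4% in AngII but 17.6% to 24.3% in AngII+RvE1, so the AngII libraries lay below those of both other groups without overlap. The separation from Sham rested on Col18a1. Without that chain the share was 3.72% ± 0.635 in Sham, 2.92% ± 0.304 in AngII and 5.35% ± 1.46 in AngII+RvE1 (SD, n = 5). Sham and AngII libraries then overlapped. Fibrillar chains held 39.8% to 43.8% over the Sham libraries, 44.8% to 61.5% over AngII and 38.9% to 50.5% over AngII+RvE1, and AngII was thus above Sham without overlap but overlapped AngII+RvE1. Basement membrane chains held 18.6% to 24%, 12.3% to 23% and 14% to 17.4% in the same order of groups, with Sham above AngII+RvE1. FACIT chains held between 1.30% and 3.75% in all 15 libraries. These shares sum to a whole, so a lower share of one class raises the others, and they are given without a test. The summed collagen FPKM overlapped between all groups: 384 to 1654 for Sham, 483 to 1384 for AngII and 1071 to 1778 for AngII+RvE1.

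**Figure D1:**
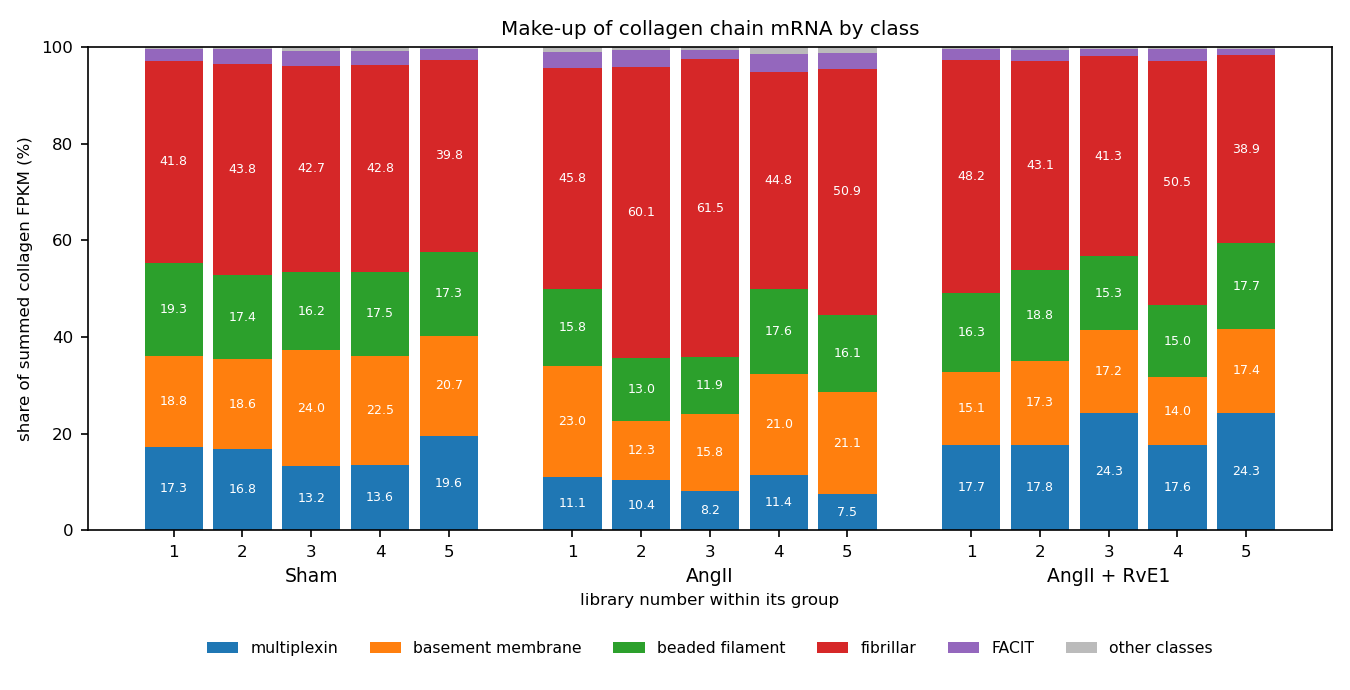
Share of each collagen class in the summed collagen FPKM (percent, stacked to 100) in each of the 15 libraries, 1 bar per library; grey holds the 3 minor classes. The multiplexin share was 7.47% to 11.4% in AngII and at least 13.2% in every library of the other groups.

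Spread within groups was large and shared by many chains. The median coefficient of variation of the 24 tested chains was 48.4% in Sham, 50.6% in AngII and 21.9% in AngII+RvE1. Sham library 3 was the lowest of its group for 21 of the 24 chains and Sham library 1 the highest for 15. AngII library 2 was the highest of its group for 17 and AngII library 5 the lowest for 14. Contractile smooth muscle markers followed a like order, with a summed level of 16900 FPKM in Sham library 1, 2498 in Sham library 3, 4635 in AngII library 2 and 1734 in AngII library 5, each the extreme of its group.

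AngII was set against Sham to ask which chains differ with angiotensin II infusion. In these aortas 0 of the 24 tested chains passed the threshold (limma, Benjamini-Hochberg over all 12603 genes, adjusted p under 0.05), where 3.17% of all genes did. At an unadjusted p under 0.05, 3 chains were higher and 3 lower, against 19.7% and 6.51% of all genes. The 3 higher include Col28a1, which passed the filter only through AngII, where it was high. The median log2 difference of the chains was -0.30, against 0.11 for all genes. Rescaling each library to a common median ratio moved the median of all genes from 0.11 to -0.0038 and that of the chains to -0.38. Without AngII libraries 3, 4 and 5 it was 0.02 over 23 chains.

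By class the median difference between AngII and Sham was -0.81 for multiplexins, -0.44 for beaded filament, -0.38 for basement membrane, -0.07 for fibrillar and 0.15 for FACIT chains. The 5 basement membrane, 3 beaded filament and 2 multiplexin chains all had negative estimates. Type I and III chains, the bulk of scar collagen, were close to 0: Col1a1 0.22 (95% interval -0.80 to 1.23), Col1a2 -0.07 (-0.92 to 0.78) and Col3a1 0.12 (-0.82 to 1.07). The largest estimates belonged to Col4a6 at -1.20 (SE 0.37, limma adjusted p = 0.0769) and Col18a1 at -1.13 (SE 0.45, adjusted p = 0.133), neither past the threshold. They were -0.75 and -0.68 without AngII libraries 3, 4 and 5. Signs of small estimates moved with the choice of libraries or scaling: rescaled, Col3a1 was -0.01, and without AngII libraries 3, 4 and 5 the fibrillar median was 0.22, Col1a2 0.29 and Col14a1 0.33 where it had been -0.28. Leaving out Sham library 3 gave 4 chains lower, where 7.34% of all genes were called (364 higher, 558 lower). Leaving out AngII library 2 gave 1 higher and 2 lower, where 13.5% were called (1356 higher, 341 lower), and leaving out Sham library 1 gave 1 lower, where 2.46% were. The 1 higher chain without AngII library 2 was Col28a1, which passed the filter only through AngII.

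**Figure D2:**
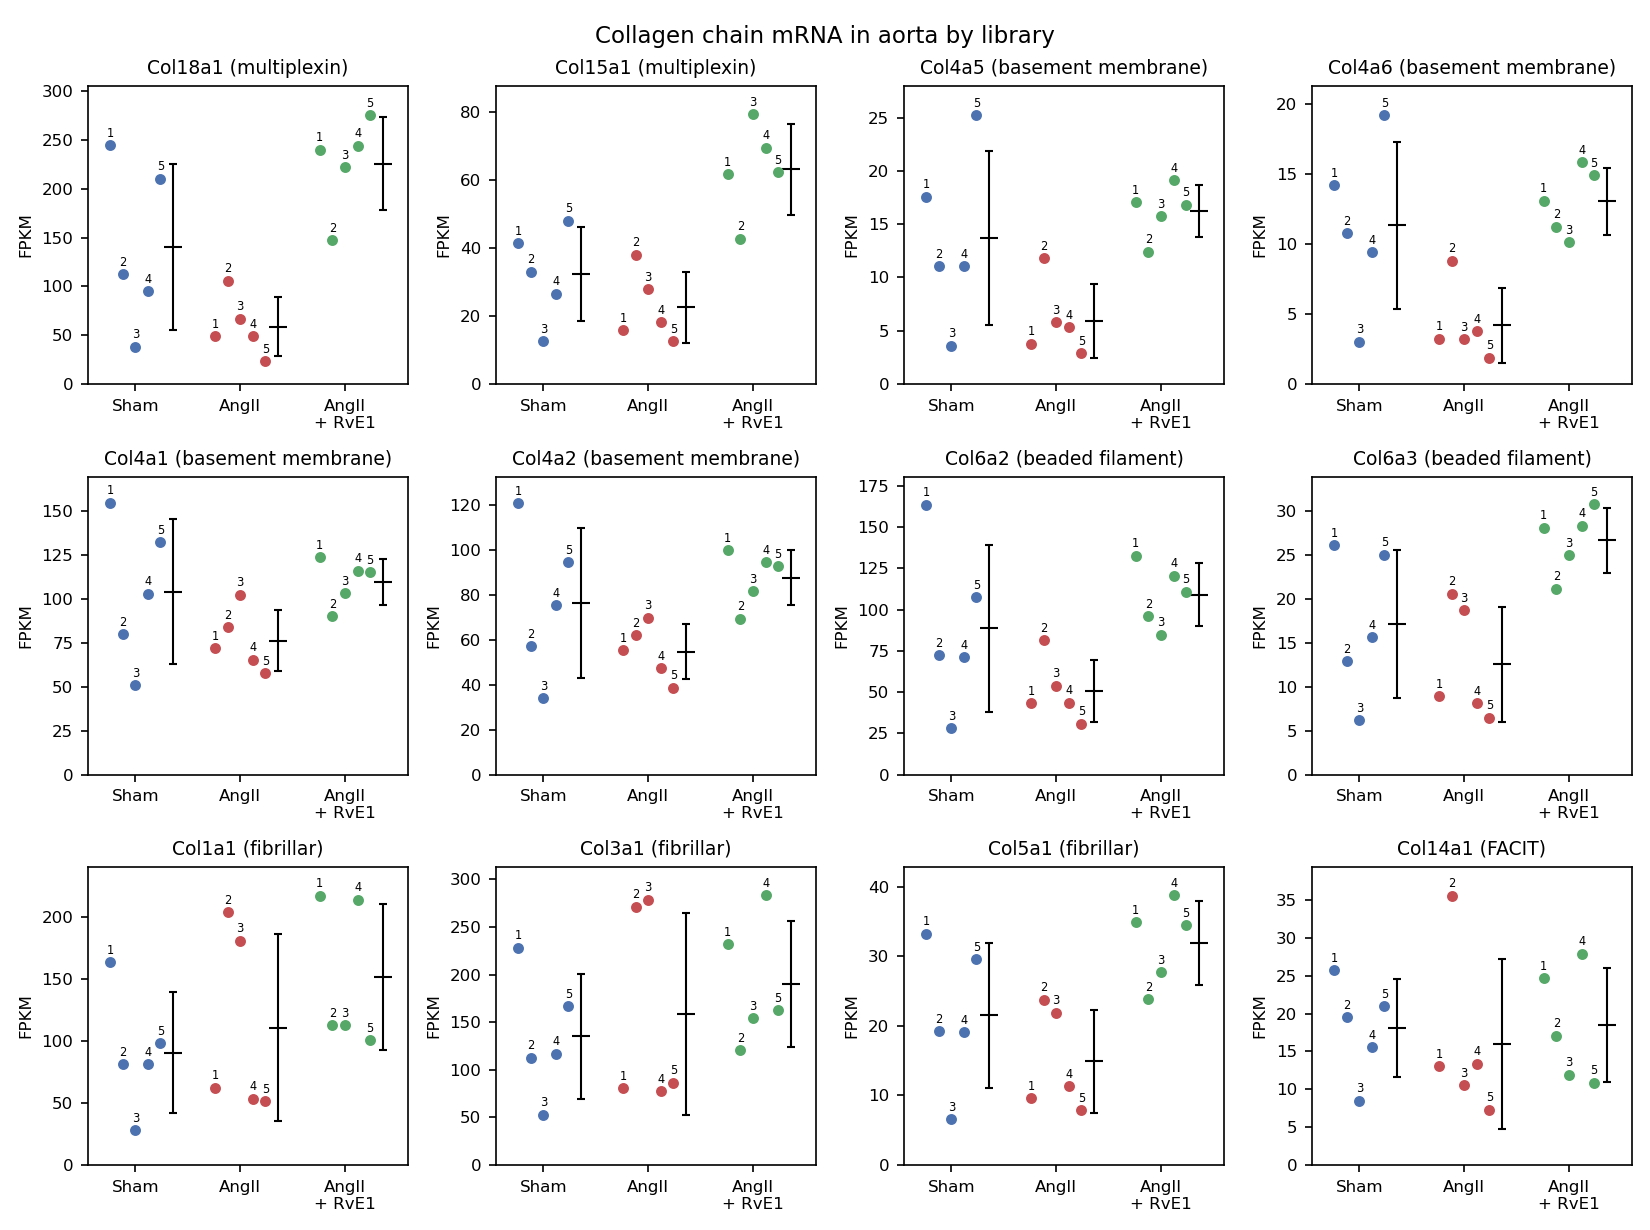
FPKM of 12 chains in each library of the 3 groups; each numbered point is a library, and the black bar beside it is the group mean ± SD. For Col18a1, Col15a1, Col4a6 and Col4a5 the AngII+RvE1 libraries lie above all AngII libraries, while the Sham libraries overlap both groups.

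AngII+RvE1 was set against AngII to ask what differs once RvE1 is added to the infusion. Of the 24 tested chains 4 were higher and 0 lower, where 8.52% of all genes were called, 4.21% as higher and 4.31% as lower. At an unadjusted p under 0.05 the counts were 12 and 1, against 9.85% and 19.1% of all genes. Both multiplexins and the X-linked pair of type IV chains made up the 4. The median log2 difference of the chains was 0.60, against -0.11 for all genes, and 18 of 24 estimates were positive. By class the medians were 1.79 for multiplexin, 1.15 for beaded filament, 0.69 for basement membrane, 0.64 for fibrillar and 0.04 for FACIT chains. Without AngII libraries 3, 4 and 5 the median of 23 chains was 0.42, and the class medians were 1.45, 0.85, 0.56, 0.34 and -0.13 in that order. With libraries rescaled, 8 chains were higher and 0 lower, while all genes went from 531 higher and 543 lower to 819 higher and 479 lower.

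Col18a1 encodes the chain of type XVIII collagen, the source of endostatin, and lies on chromosome 10 from 77052178 to 77166548. In Sham libraries 1 to 5 it was 245, 112, 38.3, 95.2 and 210 FPKM. The AngII libraries held 49.3, 106, 67.1, 48.8 and 23.4 FPKM, and the AngII+RvE1 libraries 240, 148, 222, 244 and 275. Every AngII+RvE1 library was above every AngII library, and Sham covered nearly the whole span. The log2 difference from AngII was 2.05 (SE 0.45, 95% interval 1.09 to 3.01, limma adjusted p = 0.0204), a 4.14-fold difference on the log2(FPKM + 1) scale. This was the chain with the largest difference in this comparison.

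Col15a1 encodes the other multiplexin, a chain of the zone between basement membrane and fibrils, on chromosome 4 from 47208161 to 47313167. Its levels were 41.5, 33.1, 12.5, 26.5 and 48 FPKM in Sham, 15.8, 38, 27.9, 18.2 and 12.7 in AngII, and 61.6, 42.7, 79.3, 69.4 and 62.3 in AngII+RvE1. AngII and AngII+RvE1 did not overlap, with AngII library 2 closest to the gap. The log2 difference was 1.53 (SE 0.34, 95% interval 0.81 to 2.24, limma adjusted p = 0.0205). An unnamed gene on the other strand, Gm12426, overlaps its exons and lay between 0.369 and 2.39 FPKM. Whether the counting used strand is not given in the sources used here.

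Col4a5 and Col4a6 encode the alpha5 and alpha6 chains of type IV collagen, which join in the network of smooth muscle basement membranes. Col4a6, on chromosome X from 141165403 to 141474076, was 14.2, 10.8, 3.03, 9.42 and 19.2 FPKM in Sham, 3.23, 8.8, 3.22, 3.79 and 1.88 in AngII, and 13.1, 11.2, 10.1, 15.9 and 14.9 in AngII+RvE1. Its log2 difference between AngII+RvE1 and AngII was 1.55 (SE 0.37, limma adjusted p = 0.0261). Col4a5, the neighbour on the other strand from 141475385 to 141689234, was 17.6, 11, 3.6, 11 and 25.2 FPKM in Sham, 3.79, 11.8, 5.82, 5.32 and 2.92 in AngII, and 17.1, 12.4, 15.8, 19.1 and 16.9 in AngII+RvE1. Its difference was 1.43 (SE 0.39, limma adjusted p = 0.0383). For both genes AngII library 2 came within reach of the lowest AngII+RvE1 library without overlapping it. Their ratio, Col4a5 over Col4a6, was 1.03 to 1.81 across all 15 libraries, with overlap between groups.

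The 4 calls changed with the libraries used. Without AngII libraries 3, 4 and 5, none of the 4 was called. The log2 differences were 1.60 for Col18a1, 1.30 for Col15a1, 1.12 for Col4a5 and 1.11 for Col4a6, with limma adjusted p between 0.341 and 0.439. With 2 AngII libraries left, 1 gene of the whole table was called, so that fit cannot show whether the calls rest on the 3 left out. Leaving out AngII library 5 likewise left 0 chains called, with 0.76% of all genes, and so did leaving out AngII+RvE1 library 1, 4 or 5, with 1.31%, 0.94% and 0.804%. Leaving out AngII library 3 or 4 left 2 chains, with 3.11% and 3.83% of all genes. Leaving out AngII library 2 gave 10 higher and 2 lower, with 16% of all genes, and leaving out Sham library 3 gave 9 higher, with 12.1%. The 2 lower include Col28a1, which passed the filter only through AngII. Over the 15 ways of leaving out a library, Col18a1 and Col15a1 were called in 11 each, Col4a6 in 9 and Col4a5 in 7. Their highest limma adjusted p was 0.0618, 0.0636, 0.0807 and 0.113 in that order. The differences themselves stayed between 1.77 and 2.30 for Col18a1 and between 1.36 and 1.74 for Col15a1.

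The abundant type IV chains had smaller estimates. Col4a1 and Col4a2, the alpha1 and alpha2 chains found in all basement membranes, overlapped between the groups. Col4a1 was 71.9, 83.8, 102, 65.3 and 57.5 FPKM in AngII and 124, 90.2, 103, 116 and 115 in AngII+RvE1, with Sham between 50.8 and 155. Its log2 difference was 0.54 (95% interval 0.01 to 1.08, limma adjusted p = 0.168), and that of Col4a2 was 0.69 (adjusted p = 0.112). Col4a1 was 1.30 to 1.49 times Col4a2 in AngII and 1.23 to 1.30 times in AngII+RvE1, ranges that came close without overlapping, while Sham, at 1.28 to 1.49, overlapped both. Col4a4, whose product pairs with alpha3 and alpha5 in kidney and lung, was 0.883 ± 0.704 FPKM in AngII and 1.69 ± 0.468 in AngII+RvE1 (SD, n = 5), a difference of 0.56 (adjusted p = 0.120). The call in Col4a5 and Col4a6 and its absence in Col4a1 and Col4a2 does not show that the pairs differ, and that difference was not tested.

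Of the type VI chains, which tie cells to the fibrils around them, the 3 tested did not overlap between AngII and AngII+RvE1 but missed the threshold. Col6a3 was 8.92, 20.6, 18.7, 8.13 and 6.5 FPKM in AngII and 28.1, 21.2, 25, 28.4 and 30.8 in AngII+RvE1, with an estimate of 1.15 in log2 units (SE 0.35, limma adjusted p = 0.0550). Col6a2 ranged from 30.9 to 81.4 in AngII and from 84.9 to 133 in AngII+RvE1 (1.15, adjusted p = 0.0600), and Col6a1 from 35.2 to 77.2 and from 79.2 to 117 (0.96, adjusted p = 0.0755). Sham overlapped both groups for all 3, with Col6a2 for example from 28.2 to 164. With Col5a1 and the 4 called chains, 8 of 24 tested chains were higher without overlap, where 5.87% of all genes were. Of the 24, 0 were lower without overlap, where 5.23% of all genes were. Among the chains under the filter, Col13a1, Col7a1 and Col6a5 were lower in AngII+RvE1 than in AngII without overlap, at low values. The share of all genes under the filter that did so was not computed, so this is a description only. Col6a5 was highest in the lymphocyte-rich AngII libraries.

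Type I and III chains varied widely within AngII. Col1a1 was 62.3, 204, 181, 53.6 and 51.6 FPKM there and 217, 113, 113, 214 and 101 in AngII+RvE1, with 28 to 164 in Sham. Both infused groups thus held libraries above 180 and the ranges overlapped. The log2 difference was 0.64 for Col1a1 (95% interval -0.38 to 1.66, limma adjusted p = 0.398), 0.78 for Col1a2 (-0.06 to 1.63, 0.205) and 0.45 for Col3a1 (-0.49 to 1.4, 0.534). Without AngII libraries 3, 4 and 5 these estimates were 0.34, 0.42 and 0.30. Of the type V chains, which start fibrils and set their width, Col5a1 differed by 1.16 (limma adjusted p = 0.0639), Col5a2 by 1.05 (0.104) and Col5a3 by -0.64 (0.122). Col5a1 lay between 7.88 and 23.8 FPKM in AngII and between 23.8 and 38.8 in AngII+RvE1, so its groups nearly touched, and Gm13372 on its other strand lay between 0.437 and 6.36. Col27a1, a fibrillar chain of cartilage and other tissues, was 5 ± 0.474 in AngII and 5.09 ± 0.866 in AngII+RvE1 (SD, n = 5).

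**Figure D3:**
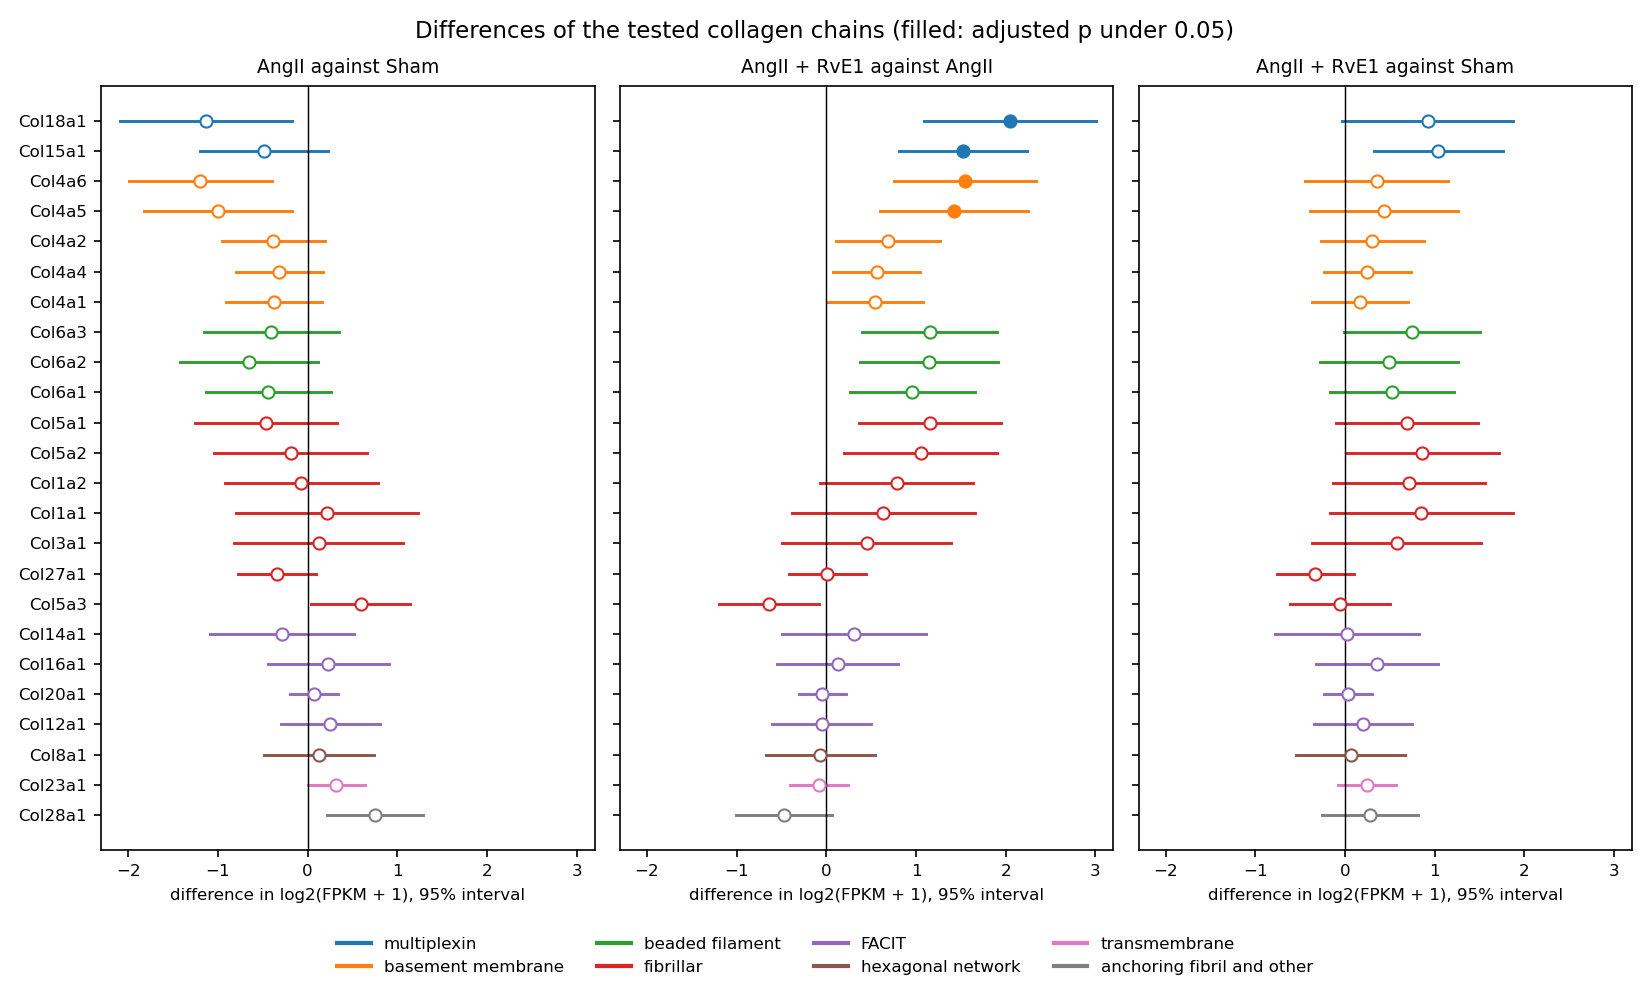
Log2 differences with 95% intervals of the 24 tested chains in the 3 comparisons, grouped by class. In AngII+RvE1 against AngII the intervals of Col18a1 (1.09 to 3.01) and Col15a1 (0.81 to 2.24) lie well above 0, and those of the FACIT chains include 0.

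FACIT chains overlapped between the 3 groups. Col14a1, which binds fibrils and decorin, was 18.1 ± 6.45 FPKM in Sham, 16 ± 11.2 in AngII and 18.5 ± 7.57 in AngII+RvE1 (SD, n = 5). Its difference between AngII+RvE1 and AngII was 0.31 (95% interval -0.49 to 1.11), and -0.31 without AngII libraries 3, 4 and 5. Col16a1 differed by 0.13 (-0.55 to 0.80) and Col12a1, a fibril chain of tissue under tension, by -0.05 (-0.60 to 0.50). Intervals this wide still allow a change of 1.5-fold in these 3 chains, so their place near 0 is not shown to differ from that of other classes. The remaining tested FACIT chain, Col20a1, had a narrower interval, -0.04 (-0.31 to 0.22), which excludes a 1.5-fold change on the log2(FPKM + 1) scale. Its level was low, 1.42 ± 0.158 FPKM in AngII and 1.35 ± 0.165 in AngII+RvE1 (SD, n = 5), and that scale pulls low genes toward 0.

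Among the minor classes, Col8a1, the type VIII chain of the vessel intima, was 2.31 ± 1.28 FPKM in Sham, 2.68 ± 1.61 in AngII and 2.36 ± 0.868 in AngII+RvE1 (SD, n = 5). Its partner Col8a2 stayed under the filter, at 0.533 ± 0.241, 0.298 ± 0.243 and 0.950 ± 0.575. Of the transmembrane chains, Col23a1 was 1.10 ± 0.404, 1.61 ± 0.328 and 1.48 ± 0.418, and Col13a1, under the filter, was 0.477 ± 0.275, 0.709 ± 0.0972 and 0.302 ± 0.102. Col7a1, the anchoring fibril chain of skin, did not exceed 0.436 in any library.

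A few chains had estimates of the opposite sign to the rest. Col28a1, a chain described in peripheral nerve, was 0.635, 0.179, 0.297, 1.53 and 0.524 FPKM in Sham, 2.08, 0.473, 1.92, 2.70 and 1.70 in AngII, and 0.943, 1.15, 0.845, 1.43 and 0.377 in AngII+RvE1. It was thus above every Sham library in 4 of 5 AngII libraries. It passed the filter only through AngII, since 3 libraries of the other groups reached 1 FPKM, and it was not tested without AngII libraries 3, 4 and 5, so its estimates are a description. Its difference was 0.76 between AngII and Sham and -0.47 between AngII+RvE1 and AngII, neither past the threshold. Schwann cell markers summed to 56.3 to 191 FPKM over Sham, 101 to 518 over AngII and 131 to 191 over AngII+RvE1, and their part in this was not tested. Col5a3, the third type V chain, was 9.77 ± 3.35 FPKM in AngII against 6.16 ± 2.43 in Sham and 5.91 ± 2.29 in AngII+RvE1 (SD, n = 5), with differences of 0.59 (limma adjusted p = 0.167) and -0.64.

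Below the filter, Col6a5 and Col6a4 followed the lymphocyte-rich libraries. Col6a5 was 0.227, 0.211, 3.23, 0.845 and 2.39 FPKM over AngII libraries 1 to 5, with a maximum of 0.27 in the other groups. Col6a4 reached 1.11, 0.519 and 1.33 in these libraries and did not exceed 0.147 in any other. Both were singled out after their values were seen and are given without a test, and the part of lymphoid tissue in them was not tested.

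AngII+RvE1 was set against Sham to ask how far the aortas with both agents lay from controls. Here 0 of 24 chains passed, and 0.0238% of all genes did. At an unadjusted p under 0.05, 2 chains were higher and 0 lower, against 4.71% and 1.98% of all genes. The chains had a median of 0.36, all genes of 0.01, and 22 of 24 estimates were positive. Col15a1 had the largest, 1.04 (95% interval 0.33 to 1.76, limma adjusted p = 0.597), with levels in AngII+RvE1 that overlapped Sham. For Col18a1 it was 0.92 (-0.04 to 1.88, adjusted p = 0.760), and for Col5a2 0.86 (0.01 to 1.71, adjusted p = 0.737). Without Sham library 3 the median of the chains was 0.13. This comparison shares libraries with both others, so the 3 sets of estimates are not independent.

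Ratios within a library show unequal change without regard to library scale. These pairs were chosen after the values were seen and have no test. Col18a1 relative to Col1a2 was 0.890 ± 0.194 in Sham, 0.425 ± 0.105 in AngII and 1.04 ± 0.288 in AngII+RvE1 (SD, n = 5). The AngII ratios, 0.308 to 0.537, lay below all of Sham, 0.679 to 1.12, and all of AngII+RvE1, 0.787 to 1.41. Sham and AngII+RvE1 overlapped. AngII libraries 1 and 2, with ratios of 0.537 and 0.367, were below both other groups as well. The same separation was seen for Col18a1 relative to Col1a1 and to Col3a1. Lower values in AngII than in Sham were not particular to Col18a1. Col6a2 relative to Col1a2 was 0.28 to 0.48 in AngII and 0.50 to 0.72 in Sham, without overlap, while AngII+RvE1, 0.39 to 0.57, overlapped both. Col15a1 relative to Col1a2 was 0.132 to 0.199 in AngII but 0.213 to 0.459 in AngII+RvE1, while Sham, 0.181 to 0.255, overlapped both. Relative to Col1a1 it overlapped between AngII, 0.154 to 0.339, and AngII+RvE1, 0.284 to 0.702. Relative to Col4a1, Col18a1 was 1.64 to 2.39 in AngII+RvE1, above 0.406 to 1.26 in AngII and 0.753 to 1.59 in Sham.

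**Figure D4:**
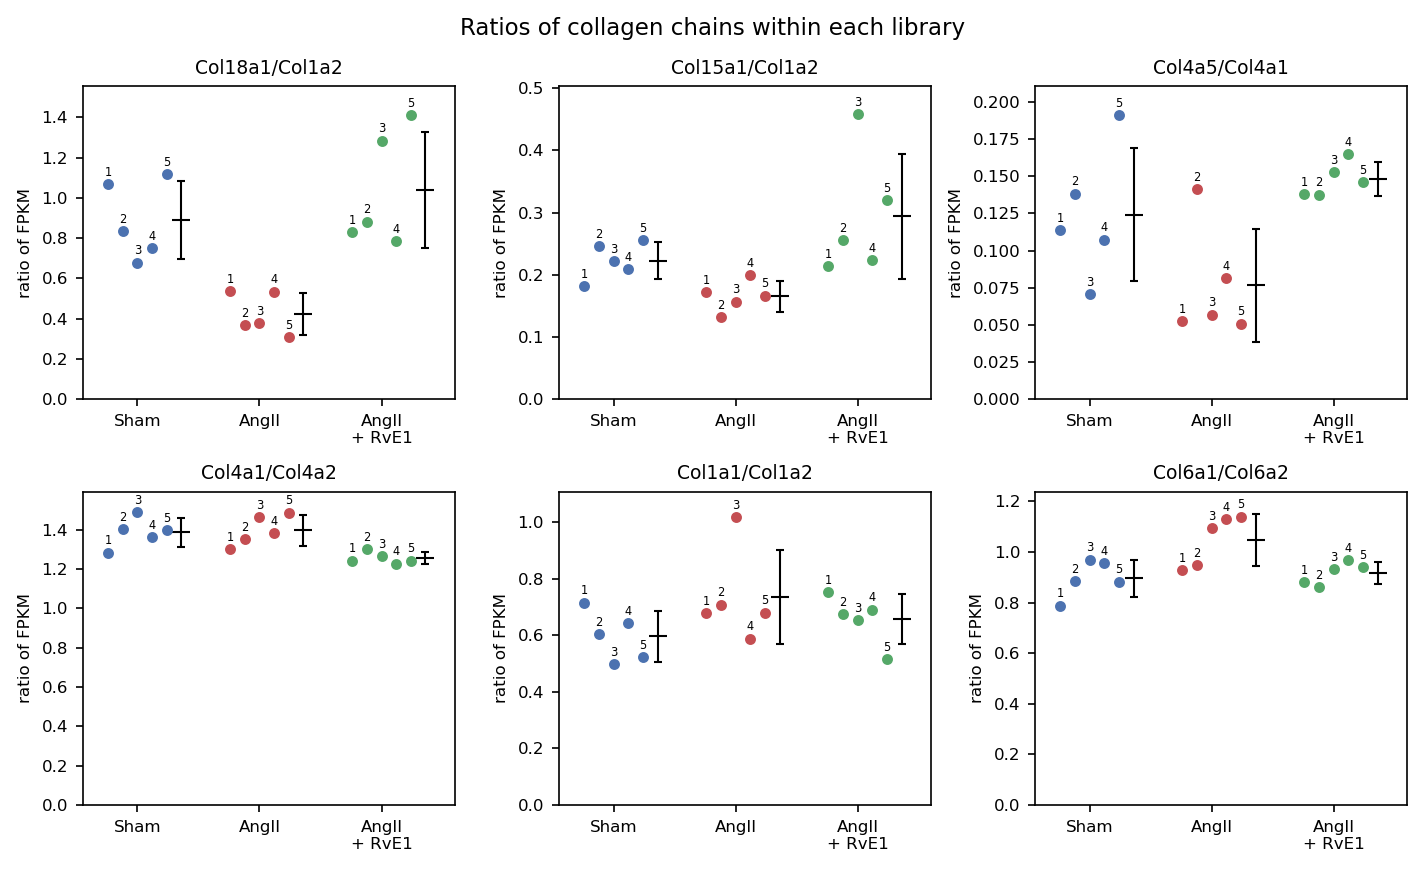
Ratios of FPKM between pairs of chains in each library; numbered points are libraries, and the black bar is the group mean ± SD. Col18a1 over Col1a2 is 0.308 to 0.537 in AngII and at least 0.679 in the other groups, and Col4a1 over Col4a2 lies within 1.23 to 1.49, with AngII+RvE1 just below AngII.

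Markers of other cell types moved with the same comparisons. In AngII+RvE1 against AngII, 13 of 14 contractile smooth muscle genes were higher and 0 lower, where 4.21% of all genes were higher and 4.31% lower. Their summed level spanned 2498 to 16900 FPKM over Sham, 1734 to 4635 over AngII and 7398 to 13200 over AngII+RvE1. None of the 14 was below 1 FPKM in all libraries, and no gene of any marker list was at 0 in all of them. Of 11 fibroblast genes 1 was higher and 0 lower, with sums of 907 to 1873, 1250 to 2106 and 985 to 1841 FPKM that overlapped between groups. Of 11 endothelial genes 1 was lower, and all 11 estimates were negative, where 8082 of 12603 genes had negative estimates. Of 2 tested chondrocyte genes 1 was higher. Of 10 macrophage genes 6 were lower, with sums of 221 to 343 FPKM for Sham, 270 to 3122 for AngII and 269 to 352 for AngII+RvE1. In AngII against Sham, where 3.17% of all genes were called, 2 contractile genes were lower and 4 macrophage genes were higher. At an unadjusted p under 0.05, 12 contractile genes were lower, where 6.51% of all genes were. All 11 endothelial estimates were positive with 0 called, where 8127 of 12603 genes had positive estimates. Of the 11, 2 were higher at an unadjusted p under 0.05, where 19.7% of all genes were. In bulk tissue, fewer cells of a type and less RNA per cell cannot be told apart. The part of smooth muscle, immune or fat content in the collagen differences was not tested.

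**Figure D5:**
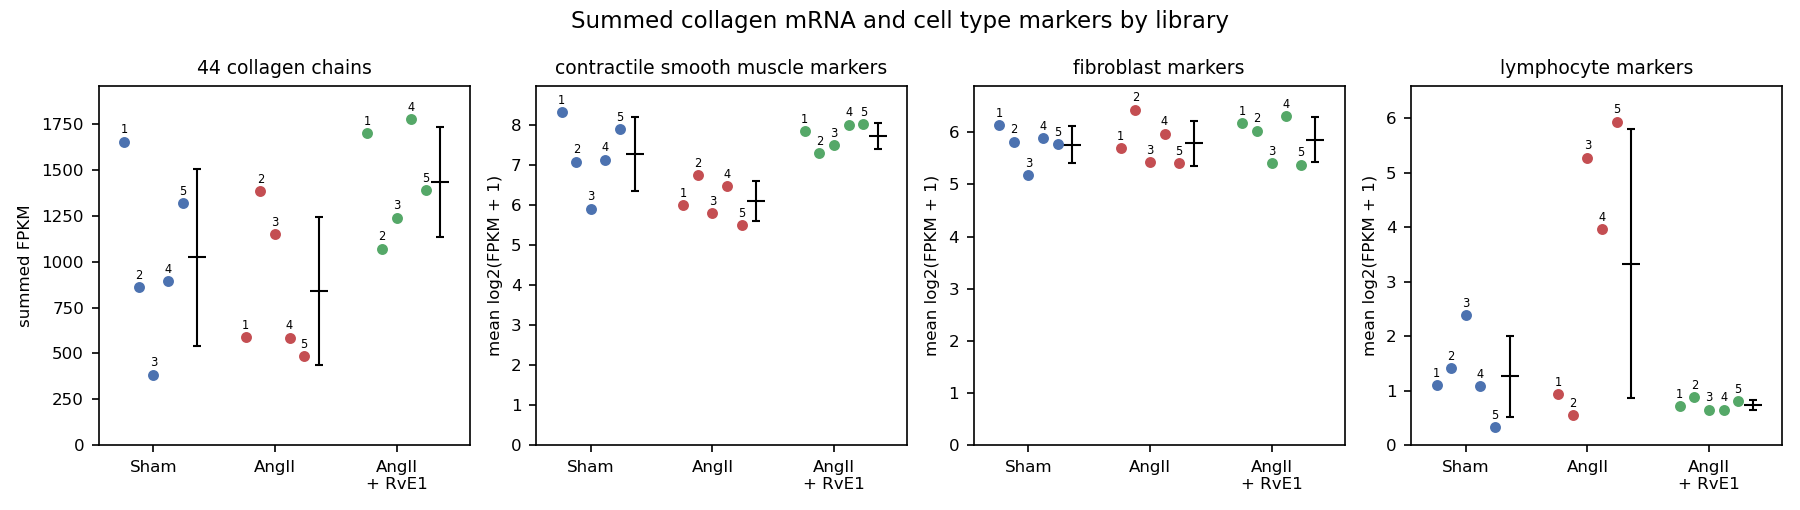
Summed FPKM of the 44 collagen chains, and mean log2(FPKM + 1) of the contractile smooth muscle, fibroblast and lymphocyte marker lists, in each library; numbered points are libraries, and the black bar is the group mean ± SD. Smooth muscle means do not exceed 6.75 in AngII and are at least 7.30 in AngII+RvE1, and lymphocyte means are high in AngII libraries 3, 4 and 5.

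The enzymes and receptors that serve collagen were read from lists of 45 genes, of which 35 were tested. In AngII+RvE1 against AngII, 3 of 19 genes for chain hydroxylation and folding were higher and 0 lower, 1 of 9 for propeptide processing and crosslinking was higher and 0 lower, and 0 of 7 receptors passed, where 4.21% of all genes were higher and 4.31% lower. At an unadjusted p under 0.05, 4 of the 7 receptors were higher, against 9.85% of all genes. Loxl1, which crosslinks elastin and collagen, was 36.5 ± 19.2 FPKM in AngII and 96.1 ± 24.6 in AngII+RvE1 (SD, n = 5), which is 1.5 higher on the log2 scale (limma adjusted p = 0.0323, SE 0.38). P3h2, a prolyl 3-hydroxylase that acts on type IV collagen, was 4.76 ± 1.81 and 12.2 ± 1.45 FPKM, without overlap (1.25, SE 0.33, limma adjusted p = 0.0372). P3h4, which belongs to a complex for lysine hydroxylation, differed by 0.89 (limma adjusted p = 0.0455), and Fkbp14, a prolyl isomerase of the endoplasmic reticulum, by 0.71 (limma adjusted p = 0.0465).

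The other members of these lists stayed under the threshold. Serpinh1, the collagen chaperone HSP47, differed by 0.63 (limma adjusted p = 0.102), and Lox by 1.28 (limma adjusted p = 0.0626). Of the receptors, Itgb1 had 0.92 (limma adjusted p = 0.0582), and Itga10 and Ddr1 had 0.64 and 0.69 (limma adjusted p = 0.0664 and 0.0977). These last 2 of 7 tested receptors were higher without overlap, where 5.87% of all genes were. The medians of the 3 lists were 0.50, 0.81 and 0.64 in the order above, against -0.11 for all genes. In AngII against Sham 0 of the 35 passed in limma, where 3.17% of all genes did, with 3, 1 and 0 lower at an unadjusted p under 0.05 in the 3 lists, where 6.51% of all genes were. In AngII+RvE1 against Sham 0 passed, where 0.0238% of all genes did, with 1 folding gene higher at an unadjusted p under 0.05, where 4.71% were. Without AngII libraries 3, 4 and 5, 0 passed in any comparison. Of all genes 0.163% then passed in AngII against Sham, 0.00814% in AngII+RvE1 against AngII and 0.0407% in AngII+RvE1 against Sham.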

How the data were processed

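RNA sequencing of 15 mouse aorta libraries was used. The authors deposited 1 table of normalised values, read here as FPKM: the deposited values have decimals and unequal sums, and the lowest value above 0 falls with transcript length. The build was mm10, per the submitters' processing notes; no source used here names the aligner or quantifier. Values were taken as log2(FPKM + 1), which pulls differences of low genes toward 0. limma-trend (limma 3.58.1, R 4.3.3) was fitted to all 15 libraries over the 12603 genes that reached 1 in at least 5 of them, two-sided, with Benjamini-Hochberg adjustment at 0.05. It was tested on simulated data. Members, classes, lists and tests were chosen with earlier results of these data known. Named by rule were all called chains, the 2 most abundant of each class, a fixed set of main chains and up to 5 called genes of each pathway list. Col4a4, Col5a3, Col20a1, Col27a1, Col2a1, Col11a2, Col6a4, Col6a5 and the uncalled pathway genes were named after their values were seen. Coordinates are from GENCODE vM21 on GRCm38. Alternatives were an added value of 0.1, no filter, a fit of the compared groups alone, a block for replicate number, rescaled libraries, array weights, a minimum fold change of 1.5, each library left out, and AngII without libraries 3, 4 and 5.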

Additional observations from a re-analysis of the deposited data

Results flagged for a closer look

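In 3 of 72 groups of 5 libraries, the highest or lowest library lay far from the others (a gap over 0.71 of the whole range); chance gives about 1 in 20. Col14a1 was 35.6 FPKM in AngII library 2, where the next library held 13.4. Col4a6 was 8.8 FPKM in AngII library 2, where the next held 3.79. Col5a2 was 20.8 FPKM in AngII+RvE1 library 2, where the next held 35.3.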

How the results depend on the processing

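Depth is unknown, values are not counts, and groups of 5 with shared spread limit what could be called. No sign of a called difference turned under any alternative. In AngII against Sham, 0 chains and 0 pathway genes were called, with 3.17% of all genes. Array weights gave 11 chains and 7 pathway genes, with 22.4% of all genes. Of these chains 10 were lower, and the 1 higher was Col28a1, which passed the filter only through AngII. Rescaled libraries gave 0 chains and 2 pathway genes, with 4.29% of all genes. Leaving out a library gave 0 to 4 chains and 0 to 5 pathway genes, with 0.616% to 13.5%. In AngII+RvE1 against AngII, 4 chains and 4 pathway genes became 2 and 0 without a filter, 9 and 12 with only the groups compared, 8 and 10 with rescaled libraries, 17 and 25 with array weights, 0 and 0 with a minimum fold change of 1.5, and 0 and 0 without AngII libraries 3, 4 and 5. All genes called were then 1.55%, 10.6%, 10.3%, 35.5%, 0% and 0.00814%. Leaving out a library gave 0 to 12 chains and 0 to 12 pathway genes, with 0.76% to 16% of all genes. With the replicate number as a block, 2 chains and 0 pathway genes were called, with 3.44% of all genes. Correlations of same-numbered libraries ran from -0.41 to 0.52, which cannot show whether the numbers pair the samples. AngII+RvE1 against Sham gave 0 throughout. The causes were not tested.

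Class shares moved by construction. As shares of summed log2 values in Sham, AngII and AngII+RvE1, fibrillar chains held 35.3%, 36.5% and 34.9%, FACIT 9.62%, 10.3% and 9.44%, multiplexins 11.7%, 10.3% and 12.4%, and basement membrane chains 21.4%, 18.6% and 21.2%. Without the most abundant chain of each class the shares were 32.4%, 43.3% and 34.2% (fibrillar), 11.5%, 9.59% and 9.16% (basement membrane), 0.836%, 1.24% and 0.700% (FACIT), and 3.72%, 2.92% and 5.35% (multiplexin).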
